A study of Mus musculus with 15 samples.

Results

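Aminoacyl-tRNA synthetases join each amino acid to its transfer RNA, the step that supplies the ribosome with charged tRNA. In mammals most amino acids have a cytosolic enzyme and a separate nuclear-encoded enzyme that works inside mitochondria, where it serves the translation of the few respiratory chain proteins encoded in mitochondrial DNA. Several cytosolic enzymes are bound together in a multisynthetase complex, and many cytosolic synthetase genes are known targets of ATF4, the transcription factor of the amino acid and integrated stress response. The genes described here were 36 synthetase genes taken by name, out of 20335 annotated genes that had a value in at least 1 of the 15 libraries. They comprised 20 cytosolic genes, among them Farsa and Farsb, which encode the alpha and beta subunits of phenylalanyl-tRNA synthetase, and 16 mitochondrial genes, whose symbols end in 2. All 36 passed the filter on low values, a mean of at least 1 FPKM in every comparison as reported. With the filter raised to 5 FPKM, an alternative setting, 9 of the 16 mitochondrial genes were tested between tumor and brain and 8 among the tumors.

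The libraries came from C57BL/6 mouse brain without tumor (3 libraries, no agent given) and from GL261 tumors in the brains of C57BL/6 mice (12 libraries), GL261 being an implanted mouse glioma cell line. The tumor groups were untreated (listed as a dose of 0 µg) or had received B20.4.1.1, a monoclonal antibody against VEGF-A, in doses of 50, 100 or 200 µg, every 3 days from day 10 after implantation until the endpoint, with 3 libraries in each group. VEGF-A is the main growth factor of new blood vessels. A control antibody and the animals' age are not named in the sources used here, and every tumor is from the same cell line, so the groups are a model of that line only. The 3 libraries of a group are described as individual samples with no statement that each came from its own animal, so the p-values reflect the spread among samples, which may be technical.

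Levels are FPKM, fragments scaled to transcript length and to the library's mapped fragments, summed per gene over the assembled transcripts on its exons, each weighted by how much of the gene's exonic length it covers, as a share. Differences are log2 fold changes of FPKM + 1 with their standard error (SE), which understates the change of low genes, and a gene was called where limma's p, adjusted by the Benjamini-Hochberg method over all genes tested, was under 0.05. "Rose" and "fell" are used of called genes only. The coverage that the assembly gives a transcript at 1 FPKM ran from 6.10 to 22.1 reads per base in the brain libraries and from 6.94 to 13.2 in the tumor libraries. In 4 tumor libraries, replicate 3 of each group, the agent recorded in the sample's own field did not match the group in its title, and the groups here follow the titles. The field names 50 µg for untreated replicate 3, 100 µg for 50 µg replicate 3 and 200 µg for 100 µg replicate 3. It gives no agent for 200 µg replicate 3. Whether the title or the field is right is not known here. A second feature also divided the tumor libraries. Of the genes at 1 FPKM or more, 4.66% to 5.81% were assembled in separate pieces in replicate 3 at 100 µg and the 3 libraries at 200 µg, and 13.1% to 31.1% in the other 8. By the titles, the 200 µg group lay wholly on the low side. This feature and that dose therefore cannot be told apart except through 1 library at 100 µg. The agent field of that library names 200 µg, and if the field is right they cannot be told apart at all. In brain the share was 44.0%, 27.0% and 9.25% in replicates 1, 2 and 3, beside 15.2% to 18.3% in untreated tumors. The part of this feature in the differences between tumor and brain was not tested. In these bulk libraries, fewer cells of a type and less RNA per cell cannot be told apart.

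The tissue labels were checked against marker genes. The summed level of 8 neuron markers was 1909 to 2734 FPKM in brain and 31.4 to 52.8 in untreated tumors, where 8 of 8 were called lower, as were 6 of 8 oligodendrocyte and 6 of 6 astrocyte markers. The 6 proliferation markers summed to 2.27 to 4.85 FPKM in brain, where Ccnb1 was listed at 0, and to 272 to 400 in untreated tumors, and 6 of 6 were called higher. Monocyte and macrophage markers summed to 14.1 to 31.7 FPKM in brain, where Msr1 was listed at 0, and to 87.8 to 246 in untreated tumors, with 5 of 6 tested called higher. The differences between tissue types below therefore stand beside a change in most cell types of the sample, and the part of each cell type in them was not tested.

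The cytosolic synthetase genes were mostly higher in untreated tumors than in healthy brain, and the mitochondrial genes mostly were not. In this comparison 61.4% of 14106 genes were called, 33.9% higher and 27.5% lower. Of the 20 cytosolic genes 13 rose and 0 fell, with a median log2 fold change of 1.30, against a median of 0.18 over all genes tested. Of the 16 mitochondrial genes 1 rose and 1 fell, with a median of 0.02, or 0.19 over the 9 that reached a mean of 5 FPKM. The groups did not overlap, with the tumor higher, for 13 cytosolic and 2 mitochondrial genes, beside 38.4% of all genes, and with the tumor lower for 0 cytosolic and 1 mitochondrial gene, beside 30.9% of all genes. Scaling the libraries by the median of ratios moved the median of all genes to -0.05, that of the cytosolic genes to 1.03 and that of the mitochondrial genes to -0.20, with 11 cytosolic genes then called. With that scaling 3930 genes were called higher and 4514 lower, against 4783 and 3880 without it, so the balance over all genes turned while 0 cytosolic genes were called lower. By the plain FPKM sum of intron-matched transcripts, another setting, the cytosolic genes called were Farsa, Gars, Kars, Rars, Tars and Vars. All genes called higher then numbered 3041 of 14006.

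**Figure D1:**
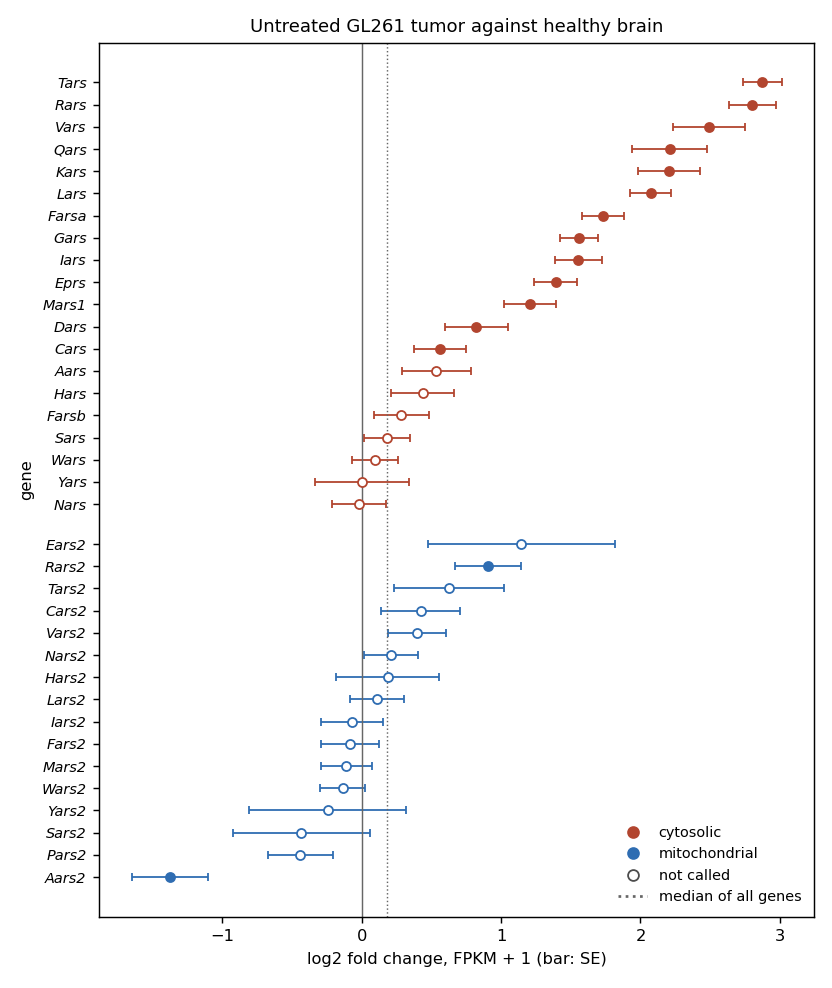
Log2 fold change of FPKM + 1 (horizontal axis) between 3 untreated tumor and 3 healthy brain libraries for each synthetase gene (vertical axis). Red points are cytosolic and blue points mitochondrial genes, bars are the SE, filled points were called at an adjusted p under 0.05, and the dotted line is the median of all genes tested (0.18). The 13 filled red points lie between 0.56 (Cars) and 2.87 (Tars), and the 2 filled blue points are Rars2 at 0.91 and Aars2 at -1.38.

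Tars, which encodes threonyl-tRNA synthetase, showed the largest difference. Its level was 7.70, 8.27 and 7.21 FPKM in the 3 brain libraries and 63.1, 59.6 and 66.2 FPKM in the untreated tumors. It was the lowest cytosolic gene in brain by mean level and the sixth in the tumors, with no overlap between the groups. The log2 fold change was 2.87 ± 0.14 (SE, n = 3 and 3, limma adjusted p = 1.94e-05). Rars, for arginine, stood at 18.5, 18.1 and 19.5 FPKM in brain and at 148, 151 and 114 FPKM in untreated tumors, where it was the highest synthetase gene. Its log2 fold change was 2.80 ± 0.17 (limma adjusted p = 3.68e-05).

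Vars, for valine, measured 16.5, 11.1 and 8.31 FPKM in brain and 76.8, 65.9 and 66.8 FPKM in the tumors, a log2 fold change of 2.49 ± 0.26 (limma adjusted p = 0.000283). The 3 tumor values lay close together and far above the widest brain value. Lars, for leucine, measured 9.08, 8.18 and 9.88 FPKM in brain and 41.9, 39.3 and 42.3 FPKM in the tumors, a log2 fold change of 2.07 ± 0.14 (limma adjusted p = 5.9e-05). Qars, for glutamine, went from 12.4, 5.96 and 10.8 FPKM to 44.5, 47.6 and 47.9 FPKM, a log2 fold change of 2.21 ± 0.27 (limma adjusted p = 0.000579). In 8 libraries the assembly joined Qars to its neighbour Qrich1, so its level is less certain.

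Gars and Kars, for glycine and lysine, are the enzymes that serve the cytosol and the mitochondria from a shared gene. Kars stood at 29.2, 17.8 and 20.6 FPKM in brain and 116, 93.9 and 107 FPKM in untreated tumors, and rose by 2.20 ± 0.22 on the log2 scale (limma adjusted p = 0.000254). Gars stood at 37.6, 38.2 and 39.2 FPKM in brain and 110, 113 and 122 FPKM in the tumors, and rose by 1.56 ± 0.14 (limma adjusted p = 0.000143). Neither gene's groups overlapped. Kars was joined to Terf2ip in 8 libraries.

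The other 6 cytosolic genes that rose were Farsa, Iars, Eprs, Mars1, Dars and Cars, with log2 fold changes of 1.73, 1.55, 1.39, 1.21, 0.82 and 0.56. They encode the phenylalanine alpha subunit and the enzymes for isoleucine, for glutamate with proline, for methionine, for aspartate and for cysteine. The SE of Farsa was 0.15 (limma adjusted p = 0.000145), that of Iars 0.17 (limma adjusted p = 0.000375) and that of Eprs 0.15 (limma adjusted p = 0.000391). Iars measured 8.86, 9.62 and 11.8 FPKM in brain and 34.4, 28.2 and 31.8 FPKM in the tumors, and Eprs 18.4, 18.1 and 18.1 FPKM and 55.4, 43.2 and 50.2 FPKM, with wide gaps between the groups. Dars and Cars had narrower gaps: Dars measured 19.1, 17.8 and 28.0 FPKM in brain and 45.0, 36.8 and 34.0 FPKM in the tumors. Cars measured 13.8, 9.57 and 9.55 FPKM in brain and 16.6, 15.2 and 17.5 FPKM in the tumors. Mars1 overlaps Ddit3 and was joined to it or to another neighbour in 15 of 15 libraries, so its level is uncertain. The smallest of these calls were the least stable. Cars lost its call in 10 of 16 alternative settings and Dars in 7, including the loss of single libraries: Cars without brain replicate 2 or 3 or without any 1 of the 3 untreated libraries, and Dars without brain replicate 1 or 2 or untreated replicate 1. The log2 fold change of Cars ran from -0.01 to 0.72 over these settings and that of Dars from 0.21 to 1.01.

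The 7 cytosolic genes that were not called were Aars, Hars, Farsb, Sars, Wars, Yars and Nars, for alanine, histidine, the phenylalanine beta subunit, serine, tryptophan, tyrosine and asparagine. Nars was the highest synthetase gene in brain, at 76.6, 65.1 and 64.4 FPKM, and measured 82.6, 66.5 and 56.3 FPKM in untreated tumors, so the tumor values enclosed those of brain. Its log2 fold change was -0.02, with a 95% confidence interval from -0.49 to 0.45. For Wars the brain values were 31.9, 32.5 and 25.5 FPKM and the tumor values 31.6, 29.7 and 34.7 FPKM. The log2 fold change of Wars was 0.10, with an interval from -0.30 to 0.50. Wars is known as a target of interferon gamma, and 9 of 10 interferon gamma response genes were called higher in these tumors, the 3 largest being Psmb9 at 5.85, Tap1 at 5.61 and Cxcl10 at 5.55 on the log2 scale. Yars measured 27.2, 19.9 and 11.5 FPKM in brain and 16.0, 16.4 and 24.2 FPKM in the tumors. Its interval, from -0.82 to 0.83, was the widest of the 7.

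The 2 subunits of phenylalanyl-tRNA synthetase, which work as a tetramer of both, did not change alike in size. Farsa went from 12.6, 15.5 and 13.9 FPKM to 46.7, 47.4 and 52.2 FPKM, while Farsb went from 15.4, 17.0 and 21.4 FPKM to 26.1, 19.1 and 21 FPKM. The log2 ratio of Farsa to Farsb, computed within each library from FPKM + 1, was -0.33 ± 0.24 (SD, n = 3) in brain and 1.12 ± 0.26 in untreated tumors. It lay below 0 in every brain library and above 0 in every untreated tumor library. The difference between the subunits' fold changes was not tested.

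By their known partners, the 8 genes whose enzymes belong to the multisynthetase complex (Dars, Eprs, Iars, Kars, Lars, Mars1, Qars and Rars) all rose, with a median log2 fold change of 1.81 and a range from 0.82 to 2.80. Of the 12 other cytosolic genes 5 rose, with a median of 0.49. This grouping was made after the values had been seen and carries no test, and 33.9% of all genes rose. It also depended on the gene sum. With the plain FPKM sum of intron-matched transcripts, an alternative setting, Kars and Rars of the complex kept their call. Dars, Eprs, Iars, Lars, Mars1 and Qars lost theirs. Outside the complex Farsa, Gars, Tars and Vars kept their call in that setting and Cars lost it. Of the complex's 3 scaffold proteins without enzyme activity, Eef1e1 rose by 1.44 ± 0.17 (limma adjusted p = 0.000534) and Aimp1 by 0.55 ± 0.18 (limma adjusted p = 0.0380), and Aimp2 was not called, at 0.40. All 5 cytosolic elongation factor genes tested rose, with a median log2 fold change of 1.86. The largest of them was Eef1a1, which delivers charged tRNA to the ribosome, at 2.85.

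Mitochondrial synthetase genes had low levels throughout, with group means between 1.24 and 21.6 FPKM. Rars2, for arginine, was the mitochondrial gene that rose, from 9.16, 8.77 and 5.01 FPKM in brain to 14.3, 15.2 and 14.8 FPKM in untreated tumors. The log2 fold change was 0.91 ± 0.24 (limma adjusted p = 0.0158). Rars2 was no longer called without untreated replicate 2 or with the plain FPKM sum of intron-matched transcripts. Over 16 alternative settings its log2 fold change ran from 0.14 to 1.04. In 7 libraries Rars2 was joined to a neighbour, Akirin2 or Orc3. Aars2, for alanine, fell. It measured 14.0, 9.16 and 6.47 FPKM in brain and 2.84, 2.85 and 3.41 FPKM in the tumors, a log2 fold change of -1.38 ± 0.27 (limma adjusted p = 0.00521). Its brain values were wide apart and its tumor values lay close together, with no overlap. Aars2 also lost its call with the plain FPKM sum of intron-matched transcripts (limma adjusted p = 0.171). Over 16 alternative settings its log2 fold change ran from -1.62 to -0.84.

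The other 14 mitochondrial genes ran from -0.44 (Pars2) to 1.15 (Ears2) on the log2 scale and none was called. Vars2 was the one whose groups did not overlap without a call, at 0.40. Ears2 and Yars2 had uneven replicates in brain. Ears2 measured 9.32, 2.19 and 0.784 FPKM in the 3 brain libraries, and Yars2 measured 3.82, 2.52 and 15.5 FPKM. Their 95% confidence intervals ran from -0.48 to 2.77 and from -1.62 to 1.13. Lars2 and Mars2 were assembled in pieces in 12 and 9 of the 15 libraries. Among 4 partners of mitochondrial charging, Gatc rose by 0.85 and Gatb fell by 0.89 on the log2 scale, both subunits of the enzyme that makes mitochondrial glutaminyl-tRNA. Of 5 mitochondrial elongation and initiation factor genes 3 rose, Mtif2, Tsfm and Gfm1, at 2.50, 1.20 and 0.58.

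Of 4 genes of synthetase-like and proofreading proteins 1 rose and 2 fell between brain and untreated tumors, with a median log2 fold change of -0.43. Tarsl2, which encodes a second threonyl-tRNA synthetase and is no member here, measured 11.7, 11.4 and 11.4 FPKM in brain and 6.19, 7.47 and 5.16 FPKM in untreated tumors, so it fell where Tars rose. Its log2 fold change was -0.79 ± 0.17 (limma adjusted p = 0.007). Dtd1, a deacylase that removes D-amino acids from tRNA, fell by 0.63 ± 0.20 (limma adjusted p = 0.0357), Dtd2 rose by 1.38 ± 0.35 (limma adjusted p = 0.0136), and Aarsd1 was not called, at -0.22. With the plain FPKM sum of intron-matched transcripts neither Tarsl2 nor Dtd1 was called, and Dtd1 also lost its call without brain replicate 2 or 3, without untreated replicate 1 or 3 and with the replicate block.

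The separation of the classes was also seen within each library. The median level of the 20 cytosolic genes was 18.5, 17.8 and 18.8 FPKM in brain and 43.2, 41.3 and 45.8 FPKM in untreated tumors. The median of the 16 mitochondrial genes was 6.73, 4.71 and 3.99 FPKM in brain and 5.0, 4.62 and 5.99 FPKM in untreated tumors. The cytosolic medians therefore did not overlap between the tissues and the mitochondrial medians did. Summed over the genes, the cytosolic level was 4.57 to 4.98 times the mitochondrial level in brain and 10.7 to 11.1 times in untreated tumors.

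**Figure D2:**
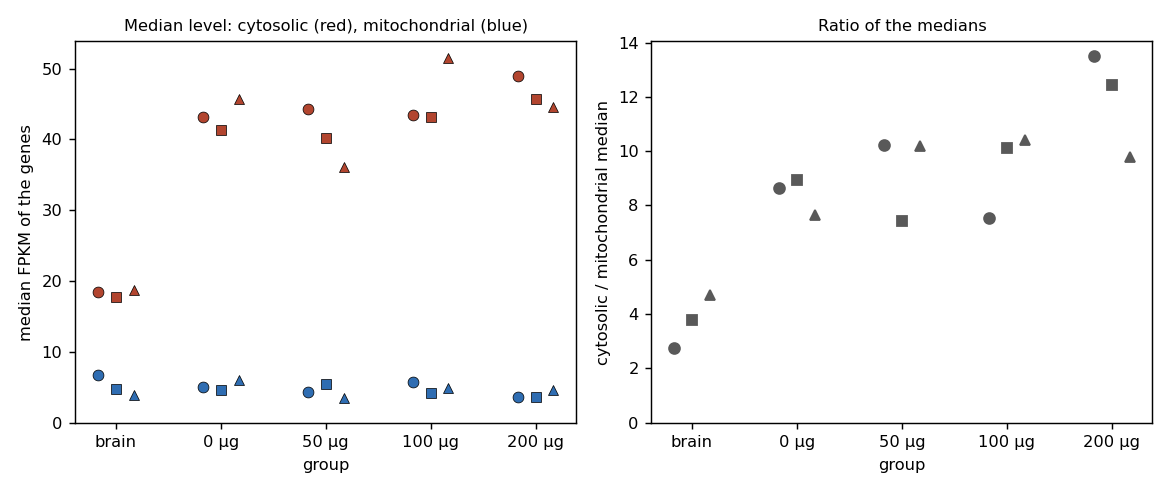
Left, median FPKM of the 20 cytosolic genes (red) and the 16 mitochondrial genes (blue) in each library by group. Right, the cytosolic median divided by the mitochondrial median. Circle, square and triangle are replicates 1, 2 and 3. The cytosolic median lies at 17.8 to 18.8 FPKM in brain and at 36.2 to 51.5 FPKM in the 12 tumor libraries, and the mitochondrial median lies at 3.55 to 6.73 FPKM in all 15.

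For 13 amino acids there is a cytosolic and a mitochondrial gene of like name among the members, so each pair could be compared within a library. The log2 ratio of the cytosolic to the mitochondrial gene was higher in every untreated tumor than in every brain library for 7 pairs and lower for 0. The share of such ratios among other pairs of genes was not computed. Taken singly, 38.4% of all genes were higher in the tumors without overlap. For threonine the log2 ratio was 1.01 ± 0.71 (SD, n = 3) in brain and 3.26 ± 0.20 in untreated tumors. For arginine, where both genes rose, it was 1.23 ± 0.47 and 3.12 ± 0.23. For alanine it went from 1.27 ± 0.43 to 3.18 ± 0.35 with the cytosolic gene not called and the mitochondrial gene lower. For asparagine the ratio was 4.33 ± 0.40 and 4.10 ± 0.40 and for tryptophan 3.63 ± 0.09 and 3.86 ± 0.15, and both of these pairs overlapped between the tissues. The Hars and Hars2 genes lie head to head and overlap, and transcripts joined them to each other or to Dnd1 or Wdr55, so their pair is uncertain. Some of the 7 pairs are uncertain too. Iars2 and Mars1 were each joined to a neighbour in 15 of 15 libraries, Vars2 in 8, Rars2 in 7 and Tars2 in 3.

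Promoter sequences were examined because cytosolic synthetase genes are known ATF4 targets. ATF4 binds, with a C/EBP partner, a composite site whose core is written here as TGATGNAA. The core, and a longer form TGATGNAAT that contains it, were searched on both strands from 250 bases before to 50 bases after the transcription start in the RefSeq table (build GRCm38.p6), and 26 of the 36 genes are reported. The core was present in 4 of 12 cytosolic genes (Gars, Iars, Tars and Yars) and in 0 of 14 mitochondrial genes, beside 4.511% of 27025 genes in the table. The longer form was present in 2 of 12 cytosolic genes (Gars and Iars), 0 of 14 mitochondrial genes and 1.084% of all genes. The members with no entry were Cars, Hars, Lars, Nars, Rars, Vars, Wars, Hars2 and Pars2. A match is a description of letters, not of binding.

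The stretches upstream of Gars, Tars and Kars are shown for contrast: Gars and Tars hold the core close to the start, and Kars, the other gene that serves both compartments, holds no match. They lie at chr6:55037851-55038000 (plus strand), chr15:11399666-11399808 (minus strand) and chr8:112011355-112011504 (minus strand), written along the gene's strand with the match in capitals, which reads as the reverse complement of the core. The first base of the match lies 30 bases before the start in Gars and 15 in Tars.
Gars: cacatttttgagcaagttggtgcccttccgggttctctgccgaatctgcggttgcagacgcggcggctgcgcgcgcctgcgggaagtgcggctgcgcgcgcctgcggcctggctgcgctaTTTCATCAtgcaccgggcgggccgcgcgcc
Tars: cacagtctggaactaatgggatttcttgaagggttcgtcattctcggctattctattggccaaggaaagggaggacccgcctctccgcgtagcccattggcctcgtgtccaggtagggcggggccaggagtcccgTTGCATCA
Kars: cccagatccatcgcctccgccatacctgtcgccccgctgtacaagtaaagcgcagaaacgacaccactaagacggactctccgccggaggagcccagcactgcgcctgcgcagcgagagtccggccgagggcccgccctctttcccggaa

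The matches in Iars, at chr13:49682126-49682155 (plus strand), and Yars, at chr4:129189895-129189924 (plus strand), lie just after the start. They are shown with 11 bases on either side because both hold the same letters, in Yars in the other orientation.
Iars: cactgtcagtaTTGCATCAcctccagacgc
Yars: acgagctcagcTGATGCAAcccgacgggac

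The 4 genes with the core were not all called between tumor and brain. Tars, Gars and Iars rose, by 2.87, 1.56 and 1.55 on the log2 scale, and Yars was not called, at 0.00, while Kars, without a match, rose by 2.20. Between untreated tumors and brain 33.9% of all genes rose and 27.5% fell. Of 25 tested genes of an ATF4 response list, 23 rose in untreated tumors against brain and 0 fell, with a median log2 fold change of 1.51. Over 16 alternative settings 17 to 23 rose and 0 to 2 fell. The 3 largest were Trib3, a pseudokinase, at 6.00, Eif4ebp1, a repressor of translation, at 4.36 and the transcription factor Cebpb at 3.69. Atf4 itself measured 47.7, 59.9 and 69.4 FPKM in brain and 211, 192 and 232 FPKM in untreated tumors. Among 7 genes of the eIF2alpha kinases, their activator and the eIF2alpha phosphatase subunits, 5 rose, the largest being Eif2ak2, Ppp1r15a and Eif2ak3 at 2.98, 1.62 and 1.51.

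Antibody treatment was followed by few called differences in the synthetase genes, with log2 fold changes of both signs in both classes. The 3 doses were each compared with the same 3 untreated libraries in a fit over the 12 tumor libraries and 12625 genes, so the comparisons are not independent. At 50 µg 0.0% of all genes were called by limma, and 0 of the 36 members. Without adjustment, 486 genes, 2 cytosolic and 1 mitochondrial member had a p under 0.05. The 5 members with the smallest p were Yars at 0.64 ± 0.25, Vars at -0.46 ± 0.19, Pars2 at 0.40 ± 0.18, Farsa at -0.39 ± 0.18 and Cars at 0.36 ± 0.17 on the log2 scale, each with a limma adjusted p of 0.901. The groups did not overlap for 6 cytosolic genes and 1 mitochondrial gene with the treated group higher and for 3 cytosolic genes with it lower, beside 3.18% and 6.19% of all genes.

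At 100 µg 0.0634% of all genes were called, 0.0475% higher and 0.0158% lower, and 0 of the 36 members. By limma without adjustment, 1172 genes, 5 cytosolic and 0 mitochondrial members had a p under 0.05. Wars had the smallest adjusted p. Its level was 31.6, 29.7 and 34.7 FPKM in untreated tumors, 29.7, 37.3 and 31.8 FPKM at 50 µg, 69.5, 59.7 and 58.3 FPKM at 100 µg and 55.2, 49.6 and 45.6 FPKM at 200 µg. All 6 libraries at 100 and 200 µg lay above all 6 at 0 and 50 µg. The log2 fold change at 100 µg was 0.94 ± 0.16 (limma adjusted p = 0.0836, from 0.0516 to 0.386 over 25 alternative settings). Of the 10 interferon gamma response genes 0 were called at 100 µg by limma, with a median log2 fold change of 0.08.

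The other 4 members with the smallest p at 100 µg were Cars at 0.61 ± 0.17, Gars at 0.62 ± 0.18, Vars at -0.57 ± 0.19 and Kars at -0.75 ± 0.28, with limma adjusted p-values of 0.274, 0.283, 0.359 and 0.427. The groups did not overlap for 7 cytosolic genes with the treated group higher, 4 with it lower and 0 mitochondrial genes, beside 7.46% and 7.37% of all genes. Replicate 3 at 100 µg stood apart from the other 2 for several synthetase genes, in and outside the complex. Lars measured 46.4, 44.8 and 81.0 FPKM at 100 µg, beside 65.8, 63.1 and 65.2 FPKM at 200 µg. Eprs measured 43.1, 46.0 and 81.4 FPKM at 100 µg, beside 74.0, 65.6 and 69.5 FPKM at 200 µg. Iars, Rars, Dars, Qars and Mars1 were also highest in that library among the 3. So were Gars, Farsb, Nars, Tars, Hars and Aars outside the complex. Kars, in the complex, was lowest there, at 62.1, 75.0 and 51.9 FPKM, as were Vars, Wars, Sars and Yars outside it. Replicate 3 at 100 µg is among the libraries with few genes in pieces and among those whose agent field names another dose, here 200 µg. Without it, 0 members were called at 100 µg by limma.

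At 200 µg 3.18% of all genes were called, 2.29% higher and 0.895% lower. Of the 20 cytosolic genes 0 rose and 1 fell, and of the 16 mitochondrial genes 0 were called by limma, while 3019 genes, 11 cytosolic and 2 mitochondrial members had an unadjusted p under 0.05. The median log2 fold change was 0.40 for the cytosolic genes and -0.18 for the mitochondrial genes, beside 0.05 for all genes tested. With a model term that marks the 4 libraries in which few genes were in pieces, these medians were -0.17, -0.04 and -0.09, so the cytosolic direction turned and the cytosolic median lay below the mitochondrial one. All 200 µg libraries carry that mark. In this fit the term is therefore set by 100 µg replicate 3 against the other libraries of its group. It cannot separate the feature from that library's own values, and no conclusion is drawn from the turn. The groups did not overlap for 12 cytosolic and 4 mitochondrial genes with the treated group higher and for 4 and 4 with it lower, beside 22.6% and 17.3% of all genes.

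Vars was the member that fell. It measured 76.8, 65.9 and 66.8 FPKM in untreated tumors, 60.7, 55.3 and 38.2 FPKM at 50 µg, 51.0, 47.4 and 42.0 FPKM at 100 µg and 40.4, 36.7 and 39.6 FPKM at 200 µg. All 9 treated values lay below all 3 untreated values, and all lay above the brain values. The log2 fold change at 200 µg was -0.83 ± 0.19 (limma adjusted p = 0.0431). This call ended in 14 of 25 alternative settings, with the adjusted p between 0.0146 and 0.514. It was lost without any 1 of the untreated or 200 µg libraries, without 50 µg replicate 2 and without 100 µg replicate 1 or 2, while the log2 fold change stayed between -0.89 and -0.60.

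The other 4 members with the smallest p at 200 µg missed the threshold: Wars at 0.63 ± 0.16, Gars at 0.69 ± 0.18, Iars2 at 0.75 ± 0.20 and Yars at 0.93 ± 0.25, with limma adjusted p-values of 0.0561, 0.0602, 0.0662 and 0.0679. Gars measured 110, 113 and 122 FPKM in untreated tumors and 184, 166 and 210 FPKM at 200 µg, where it was the highest synthetase gene. Without 100 µg replicate 3, which enters only the estimate of spread, 6 cytosolic genes and 1 mitochondrial gene were called at 200 µg: Gars, Lars, Nars, Wars and Yars higher, Vars lower and Iars2 higher. Calls over all genes also grew in that fit, to 1177 of 12619 genes, against 402 of 12625 as reported. Without the 4 libraries whose agent field disagrees with the title, 3 cytosolic genes were called (Lars and Yars higher, Vars lower), beside 881 of 12649 genes. With the groups taken from that field 1 was called (Vars), beside 276 of 12640 genes. Without 50 µg replicate 3, 3 were called (Gars and Wars higher, Vars lower), beside 995 of 12584 genes. Other settings weakened these values. With the term for few genes in pieces the adjusted p by limma was 0.797 for Gars, whose log2 fold change was then 0.22, 0.609 for Iars2, at 0.53, and 0.323 for both Wars and Yars, at 0.77 and 1.30.

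**Figure D3:**
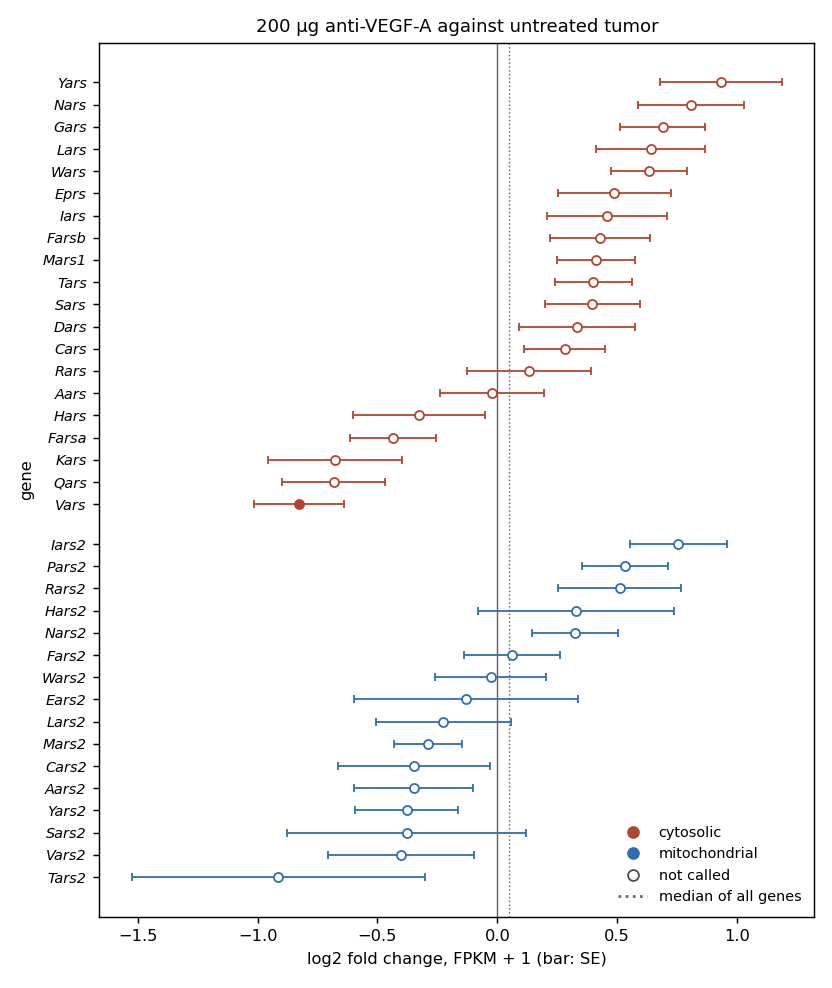
Log2 fold change of FPKM + 1 (horizontal axis) between 3 tumor libraries at 200 µg anti-VEGF-A per dose and 3 untreated tumor libraries for each synthetase gene (vertical axis). Colors, bars (SE), filled points and the dotted line (median of all genes, 0.05) are as in the plot of tumor against brain. Vars, at -0.83, is the one filled point, and the cytosolic genes run from there to 0.93 (Yars).

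Gars and Kars, which both serve the 2 compartments, had opposite signs under treatment. Kars measured 112, 86.3 and 58.9 FPKM at 50 µg, 62.1, 75.0 and 51.9 FPKM at 100 µg and 75.0, 46.2 and 80.8 FPKM at 200 µg, all but 1 of these 9 values below the lowest untreated value of 93.9 FPKM. Its log2 fold change at 200 µg was -0.68 ± 0.28 and was not called (limma adjusted p = 0.174). The log2 ratio of Gars to Kars was 0.77 ± 0.37 (SD, n = 3) in brain, 0.12 ± 0.18 in untreated tumors and 1.49 ± 0.29 at 200 µg. Every 200 µg library had a higher ratio than every untreated library. Qars, Farsa and Hars also had negative log2 fold changes at 200 µg, of -0.68, -0.44 and -0.33, with no call. The log2 ratio of Farsa to Farsb was 0.25 ± 0.30 at 200 µg, with every library below every untreated one.

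Further members are given here by library, none of them called at any dose. Yars, which rests on transcripts joined to C77080 or S100pbp in 12 libraries, measured 16.0, 16.4 and 24.2 FPKM in untreated tumors, 33.5, 28.1 and 27.0 FPKM at 50 µg, 21.9, 32.3 and 20.4 FPKM at 100 µg and 46.5, 37.6 and 27.3 FPKM at 200 µg. Its 50 and 200 µg values lay above the untreated ones and its 100 µg values did not all do so. Tars measured 72.1, 76.1 and 92.1 FPKM at 50 µg, 67.8, 75.5 and 88.8 FPKM at 100 µg and 87.7, 81.2 and 81.3 FPKM at 200 µg, all above its untreated values of 59.6 to 66.2 FPKM, with log2 fold changes of 0.34, 0.29 and 0.40 and no call. Rars, the highest gene in untreated tumors, had log2 fold changes of 0.13, 0.01 and 0.13 at the 3 doses. Among mitochondrial genes, Rars2 measured 21.6, 19.4 and 23.6 FPKM at 200 µg, above its untreated values of 14.3 to 15.2 FPKM, at 0.51 ± 0.26 (limma adjusted p = 0.25). Aars2 measured 2.49, 2.26 and 1.78 FPKM at 200 µg, below its untreated values, at -0.35 ± 0.25 (limma adjusted p = 0.41). Tars2 was listed at 0 in replicate 2 at 200 µg and at 6.4 and 5.05 FPKM in the other 2.

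Over dose as a number, 8.81% of 12625 genes were called, 5.96% with a rising and 2.84% with a falling trend. Among the 20 cytosolic genes 2 rose, Nars and Gars, and 1 fell, Vars, and among the 16 mitochondrial genes 1 rose, Iars2. The median slope on the log2 scale per 100 µg was 0.17 for the cytosolic genes, -0.05 for the mitochondrial genes and 0.03 for all genes. With the term for few genes in pieces these slopes were -0.04, -0.01 and -0.05, so the cytosolic median turned here too. With the libraries scaled by the median of ratios, 580 genes had a rising and 426 a falling trend, against 753 and 359 without it, and the 2 cytosolic genes called, Vars and Qars, both fell. Nars, for asparagine, measured 82.6, 66.5 and 56.3 FPKM in untreated tumors, 86.5, 91.4 and 88.2 FPKM at 50 µg, 65.6, 96.6 and 118 FPKM at 100 µg and 120, 125 and 112 FPKM at 200 µg. The 200 µg values lay above all untreated and 50 µg values. Its slope was 0.37 ± 0.10 per 100 µg (limma adjusted p = 0.0398). Gars had a slope of 0.33 ± 0.09 (limma adjusted p = 0.0387) and Vars of -0.38 ± 0.09 (limma adjusted p = 0.0285).

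Iars2, for isoleucine in mitochondria, measured 7.77, 12.5 and 7.82 FPKM in untreated tumors, 13.0, 11.4 and 11 FPKM at 50 µg, 12.9, 10.2 and 13.6 FPKM at 100 µg and 17.1, 17.1 and 14.3 FPKM at 200 µg, a slope of 0.35 ± 0.09 (limma adjusted p = 0.0352). Transcripts joined Iars2 to its overlapping neighbour Rab3gap2 in 15 of 15 libraries, so the level of Iars2 is uncertain. With the term for few genes in pieces, 0 members and 0 of all genes had a called trend by limma, and 0 members were called at 200 µg. In that fit 1641 genes, 3 cytosolic and 0 mitochondrial members had an unadjusted p under 0.05 for the trend, and 1486, 3 and 0 at 200 µg. The trend calls of Gars, Nars, Vars and Iars2 ended in 13, 15, 8 and 12 of 25 alternative settings. Leaving out any 1 of the 3 libraries at 200 µg, or untreated replicate 1 or 3, ended all 4, leaving out untreated replicate 2 ended those of Gars, Nars and Vars, 50 µg replicate 1 those of Gars and Nars, and 50 µg replicate 2 those of Gars, Nars and Iars2.

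**Figure D4:**
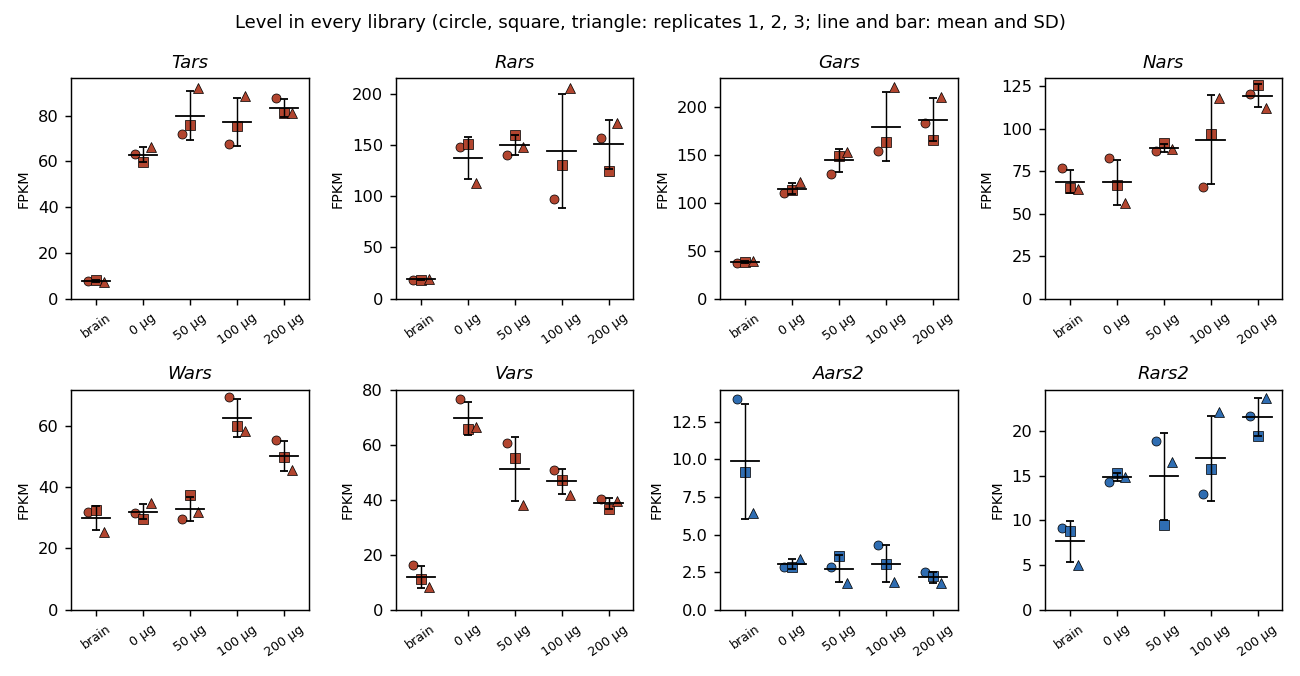
FPKM (vertical axis, from 0) of 8 synthetase genes in every library by group (horizontal axis), cytosolic in red and mitochondrial in blue. Circle, square and triangle are replicates 1, 2 and 3, the line is the group mean and the bar its SD. Wars lies at 45.6 to 69.5 FPKM at 100 and 200 µg and at 25.5 to 37.3 FPKM in the other groups, while Vars falls from 65.9 to 76.8 FPKM in untreated tumors to 36.7 to 40.4 FPKM at 200 µg.

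Other genes of charging and of the amino acid response were read beside the synthetases in the treated tumors. Of the 25 tested genes of the ATF4 response list, 2 rose at 100 µg (Cth and Slc1a4), 8 rose at 200 µg and 11 had a rising trend, with 0 called lower in each, beside 0.0475%, 2.29% and 5.96% of all genes called higher. These counts depended on the setting. With the term for few genes in pieces 1 rose at 100 µg (Slc1a4), and 0 were called at 200 µg or over dose by limma, with medians of 0.75 and 0.42 beside 0.77 and 0.38 as reported. Over all 25 alternative settings 0 to 2 rose at 100 µg, 0 to 12 at 200 µg and 0 to 14 over dose. At 100 µg 0 rose without any 1 of the untreated libraries, 100 µg replicate 1 or 2, or 200 µg replicate 1 or 2, and 1 without 50 µg replicate 2 or 100 µg replicate 3. At 200 µg 0 rose without 200 µg replicate 1, 2 without 200 µg replicate 2 or any 1 of the untreated libraries, 5 without 200 µg replicate 3, 12 without 50 µg replicate 3 and 11 without 100 µg replicate 3. Over dose 3 rose without 200 µg replicate 1, 4 without replicate 2 and 7 without replicate 3 of that group, and 6, 6 and 5 without untreated replicate 1, 2 or 3. The 3 largest at 200 µg were Cth, which makes cysteine from cystathionine, at 2.12 ± 0.26 (limma adjusted p = 0.00767), Nupr1, a stress-induced nuclear protein, at 2.03 ± 0.41 (limma adjusted p = 0.0322) and Slc7a11, the cystine transporter, at 1.79 ± 0.32 (limma adjusted p = 0.0211). Asns, the enzyme that makes asparagine, measured 55.1, 58.6 and 47.4 FPKM in untreated tumors and 95.4, 95.8 and 120 FPKM at 200 µg and rose by 0.94 ± 0.18 (limma adjusted p = 0.0281). The 3 synthetase genes with the ATF4 core other than Gars had log2 fold changes at 200 µg of 0.40 (Tars), 0.46 (Iars) and 0.93 (Yars), none called. Of the scaffold, synthetase-like and proofreading, mitochondrial partner, elongation factor and eIF2alpha kinase lists, 0 genes were called at any dose by limma.

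Cell type markers also moved with dose. At 200 µg the neuron markers summed to 13.3 to 15 FPKM, with Rbfox3 listed at 0 and 1 of 5 tested called lower, beside 31.4 to 52.8 FPKM in untreated tumors. The oligodendrocyte markers summed to 49.7 to 58.8 FPKM beside 62.3 to 93.2, with 2 of 7 called lower, and the microglia markers to 17.6 to 31.6 FPKM beside 93.9 to 194, with Siglech listed at 0 in both groups, Sall1 at 0 in the untreated group and 1 of 4 called lower. The astrocyte markers summed to 86.7 to 118 FPKM beside 55.2 to 80.4. Of the 4 tested 1 was called higher, but only 2 had a positive log2 fold change, and their median was -0.15. Over all genes 2.29% were called higher and 0.895% lower at 200 µg. The monocyte and macrophage, endothelial and proliferation lists had 0 called genes at 200 µg by limma. The part of these cell types in the synthetase values was not tested.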

How the data were processed

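RNA sequencing of 15 mouse libraries gave the deposited transcript assemblies, 1 per library, in which the authors list each transcript's exons with its level in FPKM. STAR, Cufflinks and the build mm10 are named per the submitters' processing notes, and versions are not given in the sources used here. Each library was assembled separately, with no gene names, so transcripts were assigned here to the GENCODE M21 basic annotation: by at least 1 shared intron, or else by at least 50% of their length on a gene's exons. Single-exon transcripts under 200 bases were set aside and strand was ignored. A transcript that spans neighbouring genes counts for each, which makes the members named as joined uncertain.

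Per gene, FPKM was summed with each transcript weighted by its share of the exonic length. Genes whose mean in a fit's libraries reached 1 FPKM were tested with limma 3.58.1 (R 4.3.3) on log2(FPKM + 1), two-sided, with Benjamini-Hochberg adjustment over all genes tested. Brain was compared with untreated tumor over 6 libraries, and the doses in a fit over 12 tumor libraries. The code was tested on simulated data. Alternatives changed the pseudocount, the filter, the gene sum, the scaling, the libraries, the groups and the model terms. FPKM carries no fragment total. The assemblies list lower and upper confidence limits for each transcript's FPKM, which were not used, and no counting interval is given per gene.

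All members are accounted for in each comparison. Full statistics are given for at most 10 called members with the largest change, or, where fewer than 3 are called, for the 5 with the smallest p. Pairs, the enzymes of both compartments and the 3 largest called genes of other lists are also named. Genes named outside that rule (Aars2 and Rars2 with full statistics, Farsa with Farsb, Nars and Wars in brain, Lars and Eprs at 100 µg, members given by library without a call, Asns) were chosen after their values were seen. The promoter of 1 member is not reported here, and the promoter counts leave it out. The members and lists were chosen with earlier results of these data known.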

Additional observations from a re-analysis of the deposited data

How the results depend on the processing

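Alternatives were limma fits that changed 1 choice, with these exceptions: the plain FPKM sum of intron-matched transcripts drops the coverage weight and the exon-matched transcripts together, and the groups by agent field also leave out 200 µg replicate 3, which has no such field. Leaving out the untreated library with a disagreeing field is the same fit as leaving out untreated replicate 3 and was counted once; the exons of the comprehensive annotation were an alternative chosen after seeing the data. Single members were followed through the alternatives for 34 results. These were the called members of a comparison, or the 5 with the smallest p where fewer than 3 were called. Of their alternative values 614 kept their direction and side of the threshold, 86 lost a call, 11 gained one and 1 reversed. The reversed value was Cars between tumor and brain, at -0.01 with the plain FPKM sum of intron-matched transcripts. Calls gained by other members, such as Lars and Nars at 200 µg, are not in these counts. That sum called 6 cytosolic and 0 mitochondrial genes between tumor and brain (13 and 2 as reported), 0 cytosolic at 200 µg (1 as reported), and 0 cytosolic and 0 mitochondrial genes over dose (3 and 1 as reported). Between tumor and brain it called 6033 of 14006 genes, 3041 of them higher, against 8663 of 14106 and 4783 as reported. The coverage-weighted sum of intron-matched transcripts called 0 cytosolic genes at 200 µg and 1 over dose. At 200 µg the count of cytosolic genes was 0 with a pseudocount of 0.1, 2 with no filter, 2 with a mean of at least 5 FPKM, 4 with quantile normalization, 3 without the 4 libraries with a disagreeing agent field and 0 with the term for few genes in pieces. Over dose, leaving out those 4 libraries gave 1 cytosolic and 0 mitochondrial genes, the pieces term 0 and 0, and median-of-ratios scaling and the groups by agent field 0 mitochondrial genes. Leaving out 1 library at a time gave 11 to 13 cytosolic and 1 to 3 mitochondrial genes between tumor and brain, 0 of both classes at 50 and 100 µg, 0 to 6 and 0 to 1 at 200 µg, and 0 to 5 and 0 to 1 over dose. The causes were not tested.

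Whether the replicate numbers pair the samples is not known here. The correlation of same-numbered libraries' deviations ran from -0.068 to 0.129 in the tumor groups and from -0.010 to -0.0061 between brain and untreated tumor. For libraries of different number it ran from -0.209 to 0.183 and from -0.014 to 0.023. With 3 libraries in a group, these values cannot exclude a pairing. With a replicate block, 0 cytosolic genes were called at 200 µg, 2 cytosolic and 0 mitochondrial over dose, and 11 cytosolic and 2 mitochondrial between tumor and brain. Over all genes the block gave 256 calls at 200 µg, against 402, and 3 at 100 µg, against 8. Other counts over all genes that moved by over 1.5 times were, at 200 µg, 23 with the plain sum, 256 with the coverage-weighted sum, 881 without the 4 libraries, 38 with the pieces term and 8 to 1177 with 1 library left out. At 100 µg they were 4 with the filter at 5 FPKM, 0 with the comprehensive annotation, 3 with limma's trend and robust options, 4 by agent field, 30 without the 4 libraries, 19 with the pieces term and 1 to 18 with 1 library left out. Over dose they were 262, 697, 692 and 0 for the plain sum, the weighted sum, the 4 libraries left out and the pieces term, and 185 to 1881 with 1 library left out, against 1112. At 50 µg, where 0 genes were called, the alternatives gave 0 to 5. FPKM gives no fragment totals, so the number of fragments behind the low mitochondrial genes is not known here. The coverage at 1 FPKM, given above, is the one measure of depth used.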
